A study of Homo sapiens with 16 samples.

Results

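In Toledo lymphoma cells, 1255 narrow regions carried the promoter mark H3K4me3 with and without an inhibitor of CARM1 and lay away from the ends of every protein-coding gene. They came from 12970 regions obtained by merging the 4 H3K4me3 peak lists wherever peaks overlapped or touched. A peak in all 4 lists was found in 9477 of these, 8909 of the 9477 were under 4000 bp wide, and 1255 of the 8909 lay more than 2 kb from both ends of every protein-coding gene of the RefSeq annotation. The presence, width and position of H3K4me3 peaks chose these member regions, so their H3K4me3 values below are a description. H3K27ac and H3K4me1 took no part in the choice. The question asked of the members was which are internal promoters, which belong to noncoding genes and which may be enhancers.

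Toledo is a cell line long established from a diffuse large B-cell lymphoma. The cells were kept in suspension for 6 days with TP-064 at 5 uM, which blocks CARM1, or with DMSO, the solvent control. Chromatin immunoprecipitation followed by sequencing mapped H3K27ac, H3K4me1 and H3K4me3, with 2 libraries for each mark and treatment, hence 12 libraries, and 4 input samples whose files were not used here. All groups are the same cell line, and its genotype is not given in the labels. Whether the libraries of a group stem from separate cultures is not stated, so each p-value reflects only how these samples spread, and that spread may be technical. The sample descriptions carry a code that was read here as lane number 4 for the inhibitor libraries and lane number 3 for the DMSO libraries. The descriptions do not say what the code means. Whatever it stands for, its effects and those of treatment cannot be told apart.

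H3K4me3 is placed around transcription start sites by the SET1 and MLL families of methyltransferases and is found mainly at promoters with many CpG dinucleotides. H3K4me1 is broad at enhancers, and H3K27ac, placed by CREBBP and EP300, marks promoters and enhancers in use. CARM1, an arginine methyltransferase, methylates histone H3 and of coactivators, CREBBP and EP300 among them. Many genes have more than 1 promoter, and a promoter far inside the gene can make a shorter protein or serve another tissue. Genes for long noncoding RNAs (lncRNAs), microRNAs and transfer RNAs (tRNAs) also carry H3K4me3 at their starts.

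The peak lists differed in length, and read depth is unknown. For H3K4me3 they held 10317 and 10048 peaks with the inhibitor and 12476 and 11481 with DMSO. H3K27ac lists held 4771 and 4595 peaks with the inhibitor, against 7885 and 4016 with DMSO. H3K4me1 lists held 4094 and 4242 peaks with the inhibitor, against 25058 and 9673 with DMSO. DMSO replicate 1 thus stood apart in both enhancer-related marks. Differences between treatments, and between members and gene-end regions, are given with and without it. At the gene ends of B-cell markers, H3K4me3 was in all 4 lists for 9 of 11 genes, and CD22 and CD37 had it in 2 lists. No peak was found at 10 of 10 T and NK cell markers, 7 of 8 myeloid and 8 of 9 epithelial and stromal markers, and FCGR3A and COL1A1 were the exceptions.

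The promoters that carry the main patterns are shown first, as RefSeq gives them on GRCh38.p14, from 250 bases before to 50 bases after the start. Capitals mark CpG dinucleotides. The first lines show the internal starts with the longest H3K4me3: GALNT2 (chr1:230066988-230067287, plus strand), RBPJ (chr4:26319496-26319795, plus), RIPOR2 (chr6:24910999-24911298, minus) and LUC7L2 (chr7:139359644-139359943, plus). HSP90AA1 (chr14:102086995-102087294, minus) is shown for its H3K27ac, which was found with DMSO only, and MIR17HG (chr13:91347437-91347736, plus) as a microRNA host. The last lines show starts with few CpG dinucleotides that nonetheless had H3K4me3 in all 4 lists: MIR3142HG (chr5:160468001-160468300, plus), BTK (chrX:101386142-101386441, minus) and CD72 (chr9:35618364-35618663, minus).
GALNT2: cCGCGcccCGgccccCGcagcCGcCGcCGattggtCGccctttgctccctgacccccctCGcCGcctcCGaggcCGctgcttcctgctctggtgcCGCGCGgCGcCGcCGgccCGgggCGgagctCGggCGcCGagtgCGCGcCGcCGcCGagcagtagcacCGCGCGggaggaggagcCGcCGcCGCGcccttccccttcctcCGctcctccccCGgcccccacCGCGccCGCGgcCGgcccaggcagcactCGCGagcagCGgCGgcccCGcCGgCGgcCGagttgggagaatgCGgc
RBPJ: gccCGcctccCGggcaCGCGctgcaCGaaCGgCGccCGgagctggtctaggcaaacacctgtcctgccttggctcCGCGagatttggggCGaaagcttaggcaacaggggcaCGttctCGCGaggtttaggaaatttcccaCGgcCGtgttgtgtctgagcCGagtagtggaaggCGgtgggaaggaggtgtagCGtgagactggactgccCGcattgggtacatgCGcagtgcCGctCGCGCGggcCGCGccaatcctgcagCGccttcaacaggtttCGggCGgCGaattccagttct
RIPOR2: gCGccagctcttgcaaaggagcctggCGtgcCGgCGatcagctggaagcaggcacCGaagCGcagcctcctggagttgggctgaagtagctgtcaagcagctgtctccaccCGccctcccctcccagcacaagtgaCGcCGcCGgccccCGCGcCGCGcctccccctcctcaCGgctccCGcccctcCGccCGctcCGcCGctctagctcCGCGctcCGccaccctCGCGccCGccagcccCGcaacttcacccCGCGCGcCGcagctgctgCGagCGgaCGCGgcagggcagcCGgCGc
LUC7L2: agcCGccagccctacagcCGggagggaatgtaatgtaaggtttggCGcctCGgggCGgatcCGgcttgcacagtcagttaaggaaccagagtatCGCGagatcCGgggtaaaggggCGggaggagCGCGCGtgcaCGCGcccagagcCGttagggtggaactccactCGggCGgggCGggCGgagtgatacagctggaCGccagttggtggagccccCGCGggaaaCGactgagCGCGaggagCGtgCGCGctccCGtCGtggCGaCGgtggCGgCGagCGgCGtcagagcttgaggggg
HSP90AA1: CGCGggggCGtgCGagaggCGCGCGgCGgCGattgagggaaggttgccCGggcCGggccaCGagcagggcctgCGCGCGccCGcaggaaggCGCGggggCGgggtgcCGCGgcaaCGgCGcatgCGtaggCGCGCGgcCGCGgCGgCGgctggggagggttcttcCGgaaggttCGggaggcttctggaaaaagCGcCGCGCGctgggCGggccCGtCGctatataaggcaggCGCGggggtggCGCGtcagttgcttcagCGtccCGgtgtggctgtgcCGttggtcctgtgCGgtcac
MIR17HG: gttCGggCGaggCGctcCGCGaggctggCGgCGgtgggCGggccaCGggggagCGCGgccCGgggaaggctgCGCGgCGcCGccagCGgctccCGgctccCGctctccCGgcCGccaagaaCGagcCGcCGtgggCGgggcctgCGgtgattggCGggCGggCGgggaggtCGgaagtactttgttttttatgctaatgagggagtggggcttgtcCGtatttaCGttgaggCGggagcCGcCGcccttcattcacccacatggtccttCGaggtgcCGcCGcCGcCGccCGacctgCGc
MIR3142HG: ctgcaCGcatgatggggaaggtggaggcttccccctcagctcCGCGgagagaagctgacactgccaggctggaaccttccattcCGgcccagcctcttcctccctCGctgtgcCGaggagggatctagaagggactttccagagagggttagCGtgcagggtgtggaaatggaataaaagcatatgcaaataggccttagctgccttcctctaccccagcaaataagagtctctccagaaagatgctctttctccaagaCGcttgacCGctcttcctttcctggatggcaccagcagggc
BTK: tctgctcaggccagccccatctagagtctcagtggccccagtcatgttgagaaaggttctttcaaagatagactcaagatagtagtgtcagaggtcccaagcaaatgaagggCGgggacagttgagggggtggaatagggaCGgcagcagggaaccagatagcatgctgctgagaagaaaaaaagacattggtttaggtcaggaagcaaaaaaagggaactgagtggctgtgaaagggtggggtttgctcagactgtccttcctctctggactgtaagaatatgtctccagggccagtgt
CD72: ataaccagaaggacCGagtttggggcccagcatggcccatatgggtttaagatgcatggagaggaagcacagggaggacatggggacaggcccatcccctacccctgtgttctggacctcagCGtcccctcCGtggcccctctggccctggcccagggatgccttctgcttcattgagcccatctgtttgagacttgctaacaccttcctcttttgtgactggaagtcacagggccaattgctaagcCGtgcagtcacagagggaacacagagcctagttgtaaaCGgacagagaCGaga

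In these 300-base windows the ratio of observed to expected CpG was 1.04 for GALNT2, 1.02 for RBPJ, 0.929 for RIPOR2 and 1.12 for LUC7L2. It was 1.20 for HSP90AA1 and 1.07 for MIR17HG. The 3 CpG-poor starts stood well below these, at 0.378 for MIR3142HG, 0.113 for BTK and 0.252 for CD72. BTK, a kinase of B-cell receptor signalling, had 2 CpG dinucleotides in its window, against 51 for GALNT2. The MIR3142HG window alone among those shown held the octamer core letters ATTTGCA, on either strand, which are the centre of the site for POU factors.

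The 1255 members were 682 to 3966 bp wide, with a median of 2189 bp. Their distance to the nearest end of a protein-coding gene ran from 2025 to 3553609 bp, with a median of 15429 bp. Just inside the distance limit lay regions in RASSF1 (2025 bp from a gene end), in FGF9 (2073 bp) and beside BID (2073 bp). Just outside it lay regions in FURIN (1971 bp), FSTL3 (1968 bp) and ZNF467 (1960 bp). The widest members were at GALNT2 (3966 bp), in TLK1 (3956 bp) and at RBPJ (3953 bp), while regions in CDHR3 (4000 bp), TBL1XR1 (4027 bp) and AMD1 (4030 bp) fell just over the width limit.

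Annotated transcription starts lay in 710 members (56.6%). RefSeq start sites of protein-coding genes lay inside 551 members (43.9%), which are therefore annotated internal promoters of genes whose own ends are elsewhere. A further 159 (12.7%) held the start of an lncRNA but of no protein-coding gene. Another 235 (18.7%) held no start of the promoter table but lay within 2 kb of an end of a noncoding gene or pseudogene. The remaining members had none of these: 173 (13.8%) lay inside a protein-coding gene and 137 (10.9%) between protein-coding genes, called between genes below. Noncoding genes counted only through their ends. A region between genes can therefore lie inside a noncoding gene whose ends are more than 2 kb away. The promoter table covers 79.2% of protein-coding and 62.6% of lncRNA genes, so a member without a start may hold one that is not in the table.

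Position differed from that of other H3K4me3 regions. Of the 7654 narrow regions in all 4 lists at gene ends, 82.5% held a protein-coding start and 1.48% an lncRNA start only, a difference that the distance rule itself builds in. The 576 regions away from gene ends that had H3K4me3 in both DMSO lists and neither inhibitor list were chosen by the same distance. Among those, 15.8% held a protein-coding start, 13.9% an lncRNA start only, and 27.1% lay between genes with no annotated start. The share with a protein-coding start was thus 43.9% among kept regions and 15.8% among lost ones. These shares are given as a description, since the calls that separate kept from lost are the H3K4me3 lists themselves.

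**Figure D1:**
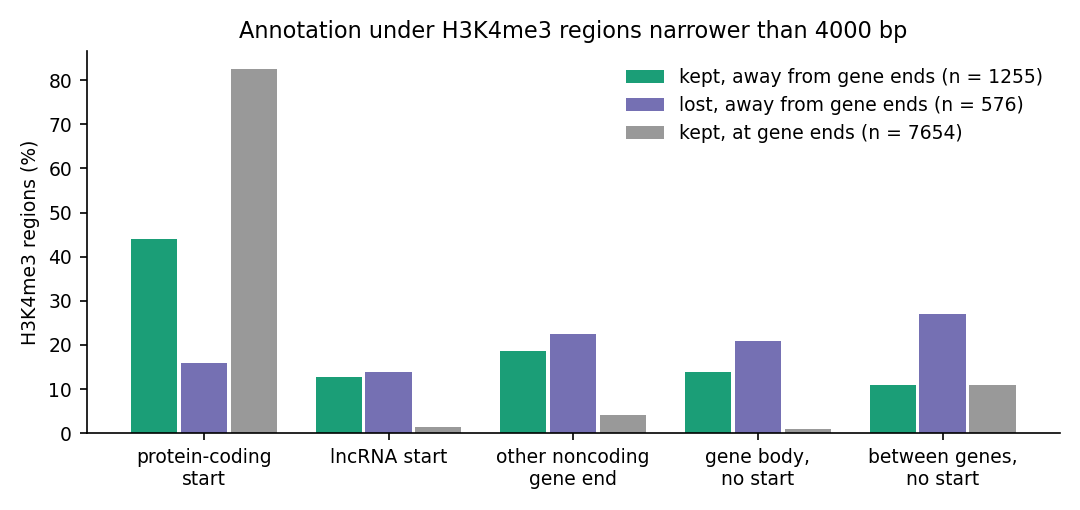
Share of H3K4me3 regions under 4000 bp (y axis, percent) in each of 5 annotation classes (x axis), for the 1255 kept regions away from gene ends (green), 576 lost regions away from gene ends (violet) and 7654 kept regions at gene ends (grey). Protein-coding starts lie under 43.9% of the kept regions away from gene ends, 15.8% of the lost ones and 82.5% of those at gene ends.

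The 551 internal promoters belonged to 544 genes. The internal start lay 2624 to 1482652 bp downstream of the gene's outermost start, with a median of 17572 bp. The outer start, taken with 2 kb on each side, had no H3K4me3 peak in any list at 269 of the 551 (48.8%, 265 genes). It had H3K4me3 in all 4 lists at 220 (39.9%) and in 1 to 3 lists at 62 (11.3%). A peak of a neighbouring gene can fall in that window, so the first count is a lower limit on outer starts without their own peak. For the same reason the 220 are an upper limit on outer starts with their own peak in all 4 lists.

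Genes marked at the internal start in all 4 lists and at the outer start in none included RBPJ, NFATC2 and DOCK8. RBPJ, the DNA-binding factor of the Notch pathway, held a member 214297 bp from its outer start. H3K4me3 there covered 3643 and 3489 bp with the inhibitor, against 3953 and 3848 bp with DMSO. RIPOR2, an inhibitor of the small GTPase RHOA, was marked 131120 bp inside its outer start, and HDAC9, a class IIa histone deacetylase, 408885 bp inside. GALNT2, a glycosyltransferase that starts mucin-type O-linked sugars, had the longest H3K4me3 of all members, with 3949 and 3525 bp in the inhibitor libraries and 3885 and 3828 bp in the DMSO libraries. The transcription factor NFATC2 (20120 bp from its outer start), the growth factor gene BDNF (20409 bp) and the guanine nucleotide exchange factor DOCK8 (3608 bp) had the same pattern.

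Genes with H3K4me3 at the internal start and within 2 kb of the outer start in all 4 lists included LUC7L2, a splicing factor. The internal start of LUC7L2 lay 19422 bp from the outer one. HSP90AA1, the inducible cytosolic HSP90 chaperone, had starts 52705 bp apart, and SLC3A2, the heavy chain of amino acid transporters, 24787 bp. The chromatin remodeller CHD8 (18848 bp), the ING family reader ING5 (15019 bp), AFF1 of the super elongation complex (72260 bp) and the scaffold gene DLG2 (907431 bp) were also in this group, as was BTK (4605 bp). Whether the outer peak belongs to the named gene or to a neighbour was not resolved.
At 32 of the 551 (5.81%) the outer start was called in both DMSO and neither inhibitor library. The share was 3.04% over the 15813 protein-coding genes of the promoter table. The opposite pattern was found at none of the 551, against 0.00632% of the 15813. Both bases include genes without an outer peak in the DMSO lists, so these shares are not rates of loss. The share among genes with such a peak was not computed. The 3 described here were picked for an outer start called with DMSO only. For CD72, an inhibitory receptor of B cells, the outer start had 0 bp of H3K4me3 in both inhibitor libraries, against 2270 and 1822 bp with DMSO, while the internal start had H3K4me3 in all 4. PRKAR1A, a regulatory subunit of protein kinase A, had 0 and 0 bp at its outer start with the inhibitor and 1244 and 1081 bp with DMSO. For GNAI2, an inhibitory G protein subunit, the outer start had 0 and 0 bp with the inhibitor and 2292 and 1651 bp with DMSO.

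Noncoding genes lay close to many members: an end of a noncoding gene or pseudogene was within 2 kb of 534 (42.5%). By type, 388 members were near an lncRNA, 152 near a pseudogene, 35 near a tRNA gene, 22 near a microRNA, 10 near a small nucleolar RNA, 7 near a small nuclear RNA and 4 near a Y RNA. A member can be near several types. No share over all merged regions is given for closeness to a noncoding gene, here or for the noncoding gene lists below. The closeness is therefore not shown to be particular to members. Regions at pseudogenes are uncertain where near-identical copies share reads, since the mapping settings are not stated.

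Of 31 annotated genes in a list of microRNAs and microRNA hosts of B cells, 6 were near a member, through 5 regions. MIR17HG, host of an oncogenic microRNA cluster, carried H3K4me3 over 3413 and 3315 bp with the inhibitor and 3612 and 3597 bp with DMSO at chr13:91346746-91350390. H3K27ac there covered 0 and 905 bp with the inhibitor and 2058 and 0 bp with DMSO, so 1 library of each treatment had a peak. The microRNAs begin just past the end of this region, at base 91350618, and their mature forms are shown as RefSeq gives them, with the seed (bases 2 to 8) in capitals. miR-17-5p and miR-20a-5p share 1 seed, and miR-19a-3p and miR-19b-3p share another.
hsa-miR-17-5p: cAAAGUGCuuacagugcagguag
hsa-miR-20a-5p: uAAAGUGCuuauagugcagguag
hsa-miR-18a-5p: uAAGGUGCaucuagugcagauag
hsa-miR-19a-3p: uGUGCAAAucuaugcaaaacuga
hsa-miR-19b-3p: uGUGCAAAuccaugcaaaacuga
hsa-miR-92a-3p: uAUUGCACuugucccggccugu

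The other hosts differed in acetylation. MIR3142HG, the host locus of miR-3142 and miR-146a, had H3K27ac over 1828 and 1709 bp with the inhibitor and 2010 and 1921 bp with DMSO, and MIR181A2HG had 1862 and 2086 bp with the inhibitor and 2008 and 1353 bp with DMSO. Both were acetylated in all 4 lists. MIRLET7A1HG had 1057 and 0 bp with the inhibitor, against 1929 and 1539 bp with DMSO, and MIR193BHG had no H3K27ac peak in any list. H3K4me3 peaks without H3K27ac in any list also lay at MIR148A, at MIR9-2 and at the joint locus of MIR424 and MIR503.

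Hosts of small nucleolar RNAs, which guide modification of ribosomal RNA, gave 9 of 31 annotated genes near a member, through 10 regions. None of the 10 had H3K27ac in all 4 lists, against 8.57% of all merged regions, and 6 had it in no list, near the 62.3% of all merged regions. SNHG5, whose H3K4me3 covered 3187 and 2583 bp with the inhibitor and 3712 and 3235 bp with DMSO, had H3K27ac in DMSO replicate 1 only, over 846 bp. SNHG26 had 0 and 0 bp of H3K27ac with the inhibitor and 1548 and 1600 bp with DMSO, so its treatments did not overlap. Of 37 annotated lncRNAs in a list of those with known roles, 7 were near a member. They include JPX and FTX of the X-inactivation centre, FIRRE, NORAD (which binds PUMILIO proteins), KCNQ1OT1 (which silences imprinted neighbours), the signal recognition particle RNA gene RN7SL1, and CHASERR, which lies beside CHD2. H3K27ac was in all 4 lists at CHASERR alone, with 1005 and 1251 bp with the inhibitor and 2727 and 1261 bp with DMSO. At NORAD it covered 0 and 0 bp with the inhibitor, against 1155 and 772 bp with DMSO.

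The 35 members near tRNA genes, which are transcribed by RNA polymerase III, had H3K4me3 over a median of 1921 and 1718 bp with the inhibitor and 2391 and 2155 bp with DMSO. H3K27ac peaks touched 4 and 3 of the 35 with the inhibitor, against 8 and 3 with DMSO. Acetylation in all 4 lists was found at 2 of them (5.71%), near the 8.57% of all merged regions. They lie at TRV-CAC1-1 (chr1:161398378-161401072) and at TRK-TTT3-1 and TRK-TTT3-2 (chr1:204505365-204508633). The region at the TRK genes had 3013 and 2207 bp of H3K27ac with the inhibitor and 3176 and 3225 bp with DMSO. Neither H3K27ac nor H3K4me1 was called in any list at 18 of the 35 (51.4%), against 466 of all 1255 members (37.1%). The share was 34.3% over all merged regions and 45.5% over the 235 members at other noncoding ends. These differences were not tested.

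Members without an annotated start numbered 545, of which 219 lay inside a protein-coding gene and 326 between genes. Enhancers would carry H3K4me1 and H3K27ac, so those with both marks in both DMSO libraries are named for the 2 classes with no start and no noncoding gene end. Between genes 8 of 137 had both marks (5.84%), inside genes 7 of 173 (4.05%), and over all 1255 members 48 (3.82%). The share over all 12970 merged regions was 4.90%, so both classes lay near it.

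The region between genes with the longest H3K27ac lay at chr1:242787233-242790527, 256687 bp from the nearest end of a coding gene, that of PLD5. H3K27ac covered 3295 bp of it in each of the 4 libraries, and H3K4me1 0 and 2710 bp with the inhibitor and 3295 and 3295 bp with DMSO. H3K4me3 covered 3295 and 2604 bp with the inhibitor and 1981 and 1223 bp with DMSO, longer in both inhibitor libraries. A pair of regions lay near ACBD3, of which chr1:226109082-226111963 had H3K27ac over 2832 and 1852 bp with the inhibitor and 2715 and 2273 bp with DMSO. Its H3K4me1 covered 1108 and 921 bp with the inhibitor and 2882 and 2492 bp with DMSO. At chr7:130958878-130961818, nearest to MKLN1, no peak of either mark was called with the inhibitor. H3K27ac there covered 2159 and 1468 bp with DMSO, and H3K4me1 2138 and 1583 bp.
Inside genes, the regions with both marks in both DMSO libraries lay in RPS6KA1, MAP2K5, GAS7, UMODL1, CCDC191, DPYSL2 and ARPC5L. The region in MAP2K5, a kinase of the ERK5 pathway, had H3K27ac over its whole 2182 bp in all 4 libraries. In GAS7, an actin-binding adaptor gene, H3K27ac covered 0 and 0 bp with the inhibitor, against 2976 and 1549 bp with DMSO. H3K4me1 at GAS7 covered 0 and 0 bp with the inhibitor and 653 and 514 bp with DMSO, so neither mark overlapped between treatments.

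The starts inside members were rich in CpG, as starts at gene ends were. The 742 protein-coding starts (544 genes) had a median observed to expected CpG of 0.833 and 67.5% GC, and 6.74% of them were under 0.4. For the 307 lncRNA starts (278 genes) the median was 0.826, with 9.45% under 0.4. Protein-coding starts in kept regions at gene ends had 0.867 and 2.66%. Over the whole promoter table the median was 0.738 for protein-coding starts (27.7% under 0.4) and 0.286 for lncRNA starts (62.5% under 0.4). Starts of 1 gene lie close together and share bases, so no test was made.

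**Figure D2:**
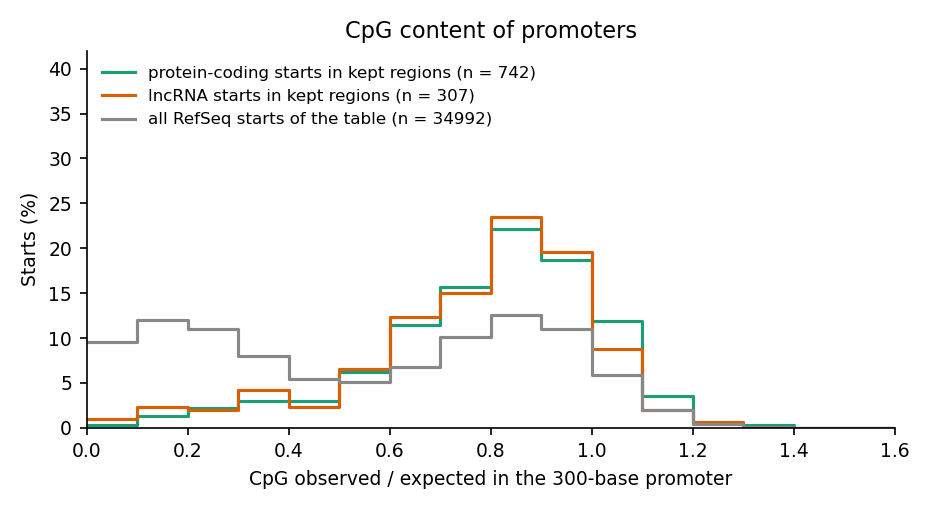
Distribution of the observed to expected CpG ratio (x axis) in the 300-base window of each start, as percent of starts (y axis), for 742 protein-coding starts in kept regions (green), 307 lncRNA starts in kept regions (orange) and all 34992 starts of the table (grey). Both sets in kept regions are highest between 0.8 and 0.9, where their medians of 0.833 and 0.826 lie, and 6.74% and 9.45% of their starts are under 0.4, against 40.5% of the table.

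Motif letters were counted on both strands of the same windows. The GC box (GGGCGG) occurred in 69.5% of the 1049 starts in members and 45.0% of all starts in the table. The ETS core (CCGGAA) occurred in 26.0% and 17.3%, the CRE core (TGACGT) in 10.9% and 7.97%, and the E-box (CACGTG) in 9.34% and 7.27%. These 4 motifs contain CG, which is more frequent in member windows than in the table. Set against protein-coding starts in kept regions at gene ends, the order turned: the 742 protein-coding starts in members had the GC box in 72.4% against 75.1%, the ETS core in 25.1% against 34.9%, the CRE core in 9.57% against 12.6% and the E-box in 8.49% against 10.7%. Against all starts of the table, the CCAAT box (CCAAT) was in 37.2% against 34.6%, and the octamer core (ATTTGCA) in 3.43% against 4.18%. Members and table differ in their mix of protein-coding and lncRNA starts. By type, protein-coding starts had the octamer core in 4.18% against 3.51% of the table, and the E-box in 8.49% against 8.34%. For lncRNA starts the octamer core was in 1.63% against 5.33%, and the E-box in 11.4% against 5.42%. Between protein-coding starts of members and of gene-end regions, the octamer core was in 4.18% against 2.07%. The TATA box (TATAAA) was in 3.62% of member starts, against 11.5% of all. Among protein-coding starts it was in 3.23% of those in members and 3.99% of those in kept regions at gene ends.

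H3K27ac peaks touched 200 and 166 of the 1255 members with the inhibitor (15.9% and 13.2%), against 438 and 212 with DMSO (34.9% and 16.9%). Both inhibitor libraries were below both DMSO libraries. The mean share was 14.6% ± 1.92 with the inhibitor and 25.9% ± 12.7 with DMSO (SD, n = 2 each), a difference of -11.3 percentage points with an exact permutation p of 0.333, the smallest that 2 against 2 libraries allow. Without DMSO replicate 1 the difference was -2.51 points, and without DMSO replicate 2 it was -20.1 points. Of all 12970 merged H3K4me3 regions, 2092 and 1811 had an H3K27ac peak with the inhibitor, against 4546 and 2321 with DMSO. That was a difference of -11.4 points, so the lower share with the inhibitor was not particular to members. Fewer marked cells and less mark in each cell cannot be told apart in bulk chromatin.

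H3K4me1 peaks touched 43 and 42 members with the inhibitor (3.43% and 3.35%), against 605 and 145 with DMSO (48.2% and 11.6%). The treatments again did not overlap, and DMSO replicate 1 lay far above DMSO replicate 2. The difference was -26.5 points with an exact permutation p of 0.333, and -8.53 points without DMSO replicate 1 or -45.1 without DMSO replicate 2. Among all 12970 merged H3K4me3 regions the shares were 5.44% and 5.22% with the inhibitor and 52.4% and 16.1% with DMSO. The difference there was -28.9 points, so the fall was not particular to members. Every list of a mark was also cut to the length of the shortest one by peak width. The differences at members were then -4.11 points for H3K27ac and -2.31 points for H3K4me1.

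**Figure D3:**
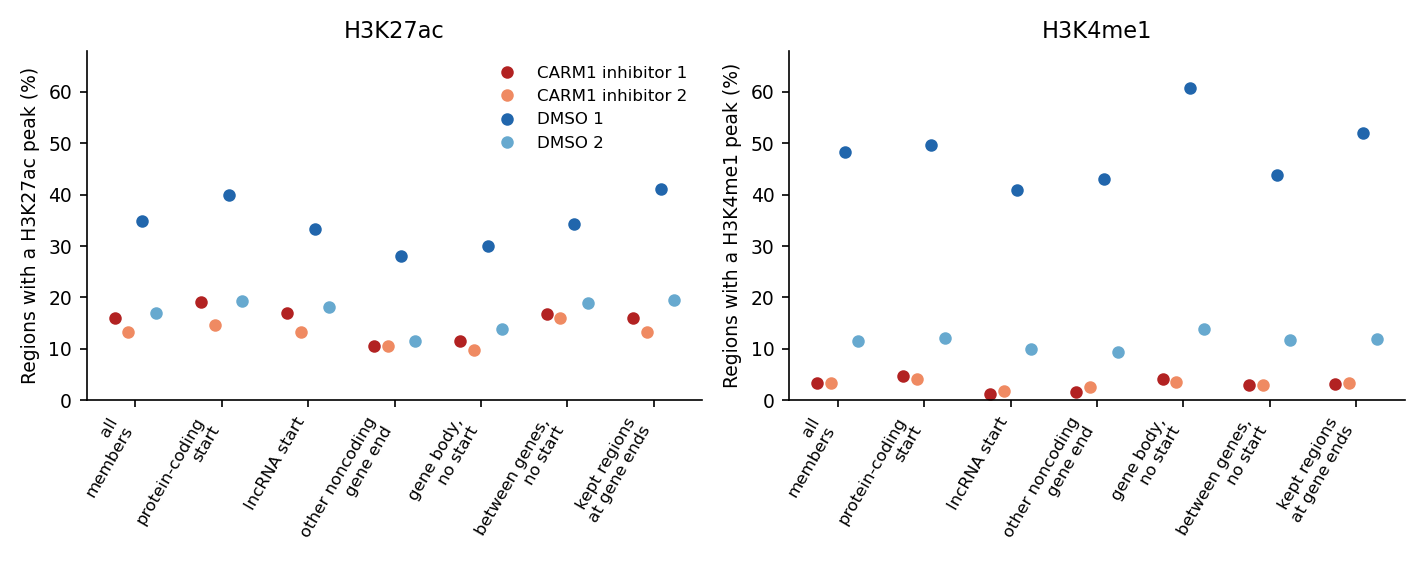
Percent of regions (y axis) with an H3K27ac peak (left) or an H3K4me1 peak (right) in each library, for all 1255 members, their 5 annotation classes and the 7654 kept regions at gene ends (x axis); each point is 1 library. DMSO replicate 1 lies above the other 3 libraries in every class, at 34.9% for H3K27ac and 48.2% for H3K4me1 over all members.

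Among the classes, shares with H3K27ac were lowest in gene bodies and at other noncoding ends in each of the 4 libraries. These differences between classes were not tested. Protein-coding starts had H3K27ac at 19.1% and 14.7% with the inhibitor and 39.9% and 19.2% with DMSO. Of the 137 regions between genes, 23 and 22 had it with the inhibitor, and 47 and 26 with DMSO. The shares at lncRNA starts were 17.0% and 13.2% with the inhibitor and 33.3% and 18.2% with DMSO. Regions in gene bodies had 11.6% and 9.83% with the inhibitor and 30.1% and 13.9% with DMSO. Regions at other noncoding ends had 10.6% in both inhibitor libraries, and 28.1% and 11.5% with DMSO. H3K4me1 was most frequent in gene bodies in DMSO replicate 1, at 60.7%, and in DMSO replicate 2, at 13.9%.

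Within a library, the share with H3K27ac was lower for the 534 members near a noncoding gene end than for the other 721. The difference was -2.97 and -1.84 points in the inhibitor libraries and -5.99 and -3.98 points in the DMSO libraries, with a mean of -3.69 ± 1.76 (SD). It was lower in 4 of 4 libraries, with an exact sign-flip permutation p of 0.125, the smallest that 4 libraries allow. For H3K4me1 the mean difference was -2.79 ± 2.39 points, lower in 4 of 4 libraries, with the same exact permutation p of 0.125. With members at pseudogene ends left out, it was -0.368 points. Set against kept regions at gene ends, the members' share with H3K27ac differed by a mean of -2.19 ± 2.92 points (exact sign-flip permutation p of 0.125). That difference was -0.00312 and -0.0339 points in the inhibitor libraries and -6.19 and -2.54 points in the DMSO libraries, so it lay almost wholly in the DMSO libraries. It was -0.875 points without DMSO replicate 1, -0.659 with gene ends more than 5 kb away, -0.737 for regions under 3000 bp, and turned to 0.986 when lists were cut to equal length. For H3K4me1 the difference from gene-end regions was -0.972 points, lower in 2 of 4 libraries, with an exact sign-flip permutation p of 0.5, and -0.0408 points without DMSO replicate 1.

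By region, H3K27ac was lost, meaning a peak in both DMSO and neither inhibitor library, at 66 members (5.26%), against 4.76% of all merged regions. Among the 201 members acetylated in both DMSO libraries, 32.8% lost the mark, against 27.8% over all merged regions and 33.3% of gene-end regions. Gain, the opposite pattern, occurred at 4 members, against 0.393% of all merged regions. H3K27ac was in all 4 lists at 99 members (7.89%), against 8.57% of all merged regions, and in no list at 786 (62.6%). These shares lie near the background. The counts depended on single libraries: without DMSO replicate 2 there were 228 losses, without CARM1 inhibitor replicate 2 there were 149 regions with H3K27ac throughout, and gains numbered 36 without DMSO replicate 1, 18 without CARM1 inhibitor replicate 2 and 8 without CARM1 inhibitor replicate 1.

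Some of the losses with the longest H3K27ac are described here. At the internal start of HSP90AA1 H3K27ac covered 0 and 0 bp with the inhibitor, against 1994 and 2061 bp with DMSO. H3K4me3 at the same place covered 2744 and 2578 bp with the inhibitor and 3790 and 3080 bp with DMSO, shorter in both inhibitor libraries. At SLC3A2 H3K27ac covered 0 and 0 bp with the inhibitor and 1874 and 1817 bp with DMSO. The same pattern was found at ING5 (1864 and 1664 bp with DMSO), PRKAR1A (1783 and 1627 bp), the antisense lncRNAs TTC39C-AS1 (2494 and 2195 bp) and SLC38A4-AS1 (1649 and 1682 bp), and a region between genes at chr17:80453545-80456001 (1923 and 1687 bp). By class the losses were 36 of 551 at protein-coding starts, 10 of 159 at lncRNA starts, 4 of 235 at other noncoding ends, 10 of 173 in gene bodies and 6 of 137 between genes. The class of other noncoding ends also had the lowest share acetylated in both DMSO libraries (9.36%), and differences between classes were not tested. Peaks carry no strand, so marks of an antisense gene and of its partner cannot be told apart.

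The 4 gains were at DLG2, GIT2, MAPRE2 and RNF213. At the internal start of DLG2 H3K27ac covered 1538 and 1825 bp with the inhibitor, against 0 and 0 bp with DMSO. At GIT2, a GTPase-activating protein for ARF proteins, it covered 1291 and 1848 bp with the inhibitor, and at MAPRE2, a microtubule end-binding protein, 859 and 899 bp. In the body of RNF213, a ubiquitin ligase, it covered 1477 and 884 bp with the inhibitor. All 4 had 0 bp in both DMSO libraries. Within 2 kb of the outer starts of DLG2, GIT2 and MAPRE2, H3K4me3 was in all 4 lists, and a peak there can be that of a neighbouring gene.

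Acetylation in all 4 lists was ranked by the library with the shortest cover. It was longest at the region between genes near PLD5 described above, at CXXC4-AS1 and at LOC105372161. LOC105372161 is an lncRNA start 31518 bp from the nearest end of a coding gene, that of BCL2, the apoptosis inhibitor. At CXXC4-AS1 H3K27ac covered 3674 and 3674 bp with the inhibitor and 3674 and 3150 bp with DMSO. At LOC105372161 it covered 3705 and 3705 bp with the inhibitor and 3705 and 2996 bp with DMSO. AFF1 had 2808 and 3547 bp with the inhibitor and 2990 and 2645 bp with DMSO, RIPOR2 3641 and 3294 bp with the inhibitor and 3944 and 2569 bp with DMSO, and GALNT2 3134 and 2917 bp with the inhibitor and 3078 and 2503 bp with DMSO. In each of these the 2 treatments overlapped or met. Over the 99 such members the median H3K27ac length was 1862 and 1745 bp with the inhibitor and 2171 and 1699 bp with DMSO, a median log2 ratio of -0.09. These lengths count only bases inside the H3K4me3 region. Where a region is covered whole, a change beyond its edges cannot be seen.

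**Figure D4:**
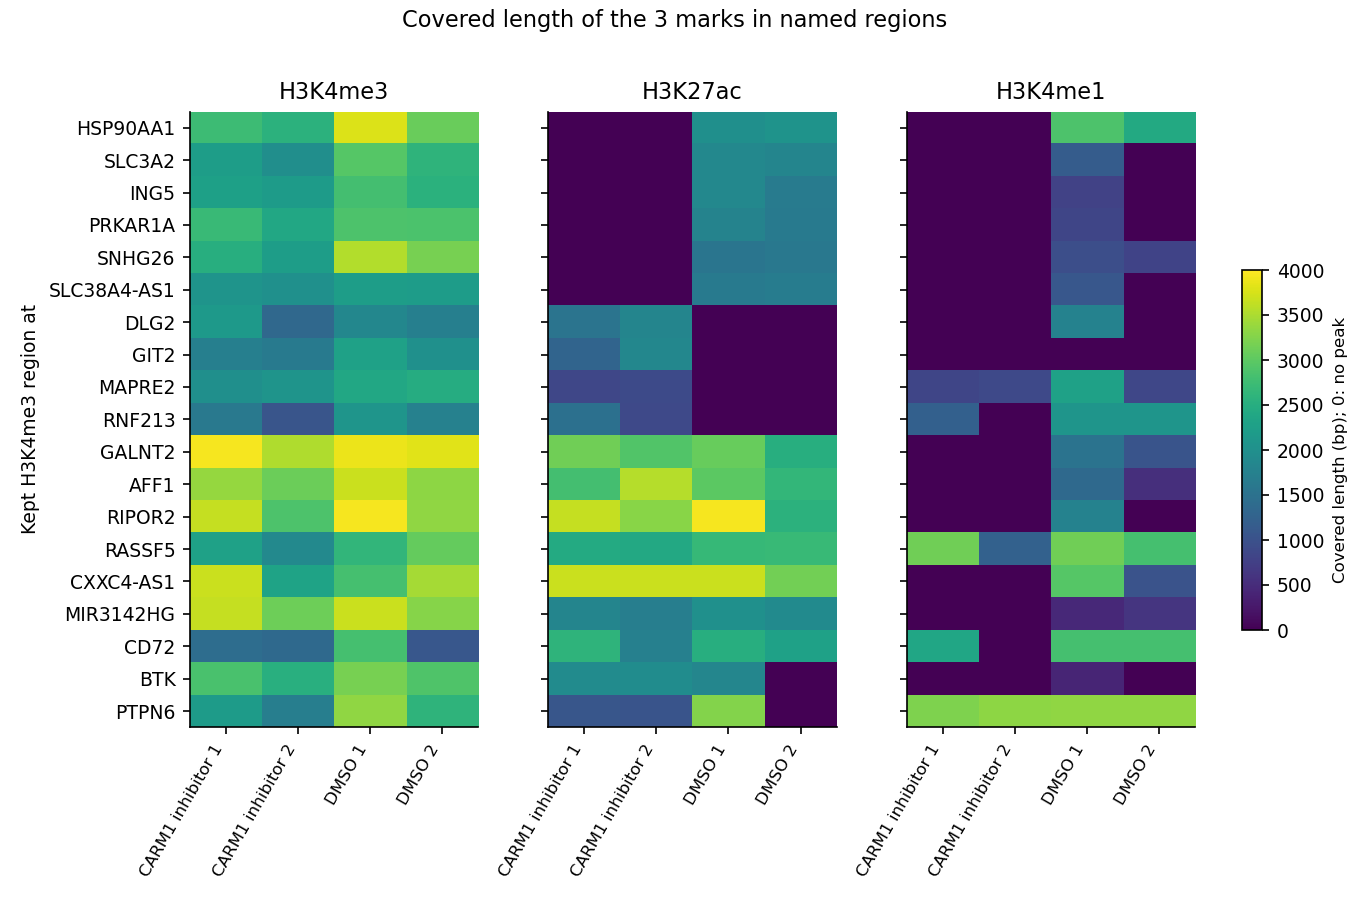
Covered length in bp (colour scale, 0 where no peak) of H3K4me3, H3K27ac and H3K4me1 in named members (rows) and in the 4 libraries (columns). H3K4me3 is present in every library, and H3K27ac is absent from both inhibitor columns at HSP90AA1, SLC3A2, ING5, PRKAR1A, SNHG26 and SLC38A4-AS1 and from both DMSO columns at DLG2, GIT2, MAPRE2 and RNF213.

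H3K4me1 was lost at 96 members (7.65%), against 9.61% of all merged regions. Of those with H3K4me1 in both DMSO libraries, 61.8% lost it over all merged regions, and among the 140 such members 96 did. No member gained it, against 0.0154% of all merged regions. The count of losses was 551 without DMSO replicate 2 and 107 without DMSO replicate 1. Ranked by the shorter of the DMSO libraries, the longest losses were at LOC105378536 (0 and 0 bp with the inhibitor, 3603 and 2842 bp with DMSO), a region between genes at chr7:129778648-129781739 (0 and 0 bp, against 3092 and 2464 bp), HSP90AA1 (0 and 0 bp, against 2876 and 2437 bp), a region between genes at chr18:48974796-48977134 (0 and 0 bp, against 2339 and 2250 bp) and SLC16A3, a lactate transporter (0 and 0 bp, against 2109 and 1859 bp). At HSP90AA1 no peak of either H3K27ac or H3K4me1 was called with the inhibitor.
H3K4me1 in all 4 lists was found at 21 members (1.67%), against 2.81% of all merged regions. PTPN6, a phosphatase that restrains B-cell receptor signalling, had the longest, with 3219 and 3313 bp with the inhibitor and 3330 and 3330 bp with DMSO. H3K27ac at PTPN6 covered 1067 and 1033 bp with the inhibitor and 3254 and 0 bp with DMSO. RASSF5, an effector of RAS family GTPases, had H3K4me1 over 3129 and 1245 bp with the inhibitor and 3129 and 2818 bp with DMSO, and H3K27ac in all 4 lists. NOL4L, FLNA (filamin A, which crosslinks actin), RCOR2, NFATC2, TCEA2 and LGALS8 also kept H3K4me1 in all 4 lists.

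H3K4me3 peaks within members were shorter with the inhibitor, as they were over all kept regions. The median covered length was 1728 and 1570 bp with the inhibitor, against 2146 and 1966 bp with DMSO, a median log2 ratio of -0.29. Over all 9477 kept regions it was 1956 and 1793 bp with the inhibitor and 2361 and 2212 bp with DMSO, a median log2 ratio of -0.27. Both inhibitor libraries were shorter than both DMSO libraries at 1002 members (79.8%), against 81.9% of all kept regions, and longer at 13 (1.04%), against 0.633%. Length over protein-coding starts was 1880 and 1711 bp with the inhibitor and 2295 and 2113 bp with DMSO. It was shortest between genes, at 1438 and 1284 bp with the inhibitor and 1846 and 1691 bp with DMSO. The shorter inhibitor peaks go with shorter lists of peaks, and how far depth or lane enters was not tested.

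**Figure D5:**
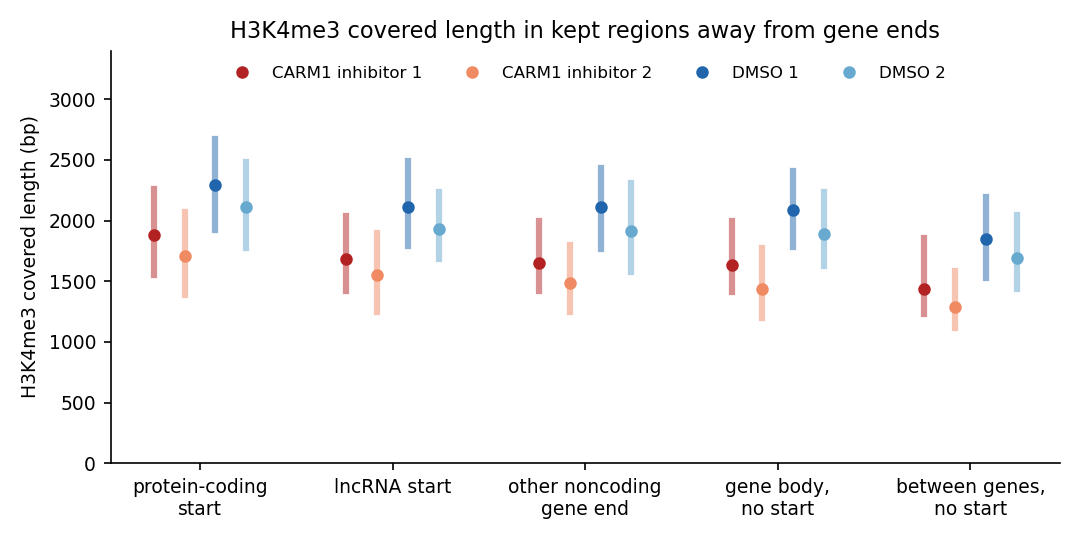
H3K4me3 covered length in bp (y axis) in the 5 annotation classes of members (x axis) in each library; points are medians and bars run from the lower to the upper quartile. In every class both inhibitor medians lie below both DMSO medians, as at protein-coding starts with 1880 and 1711 bp against 2295 and 2113 bp.

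Over all protein-coding genes, 791 (3.96%) held a member. Of 43 B-cell transcription factors and regulators, 4 did: FOXP1, PRDM1, NFATC1 and NFATC2. FOXP1, a repressor active in lymphoma, had H3K4me3 in its gene body over 2315 and 1222 bp with the inhibitor and 2307 and 2108 bp with DMSO, and H3K27ac in DMSO replicate 1 only (2072 bp). At PRDM1, the factor of plasma cell differentiation, neither H3K27ac nor H3K4me1 was called in any list. Of 48 surface and signalling genes, 5 did: CD72, BTK, PLCG2, DOCK8 and PTPN6. At CD72 H3K27ac covered 2598 and 1745 bp with the inhibitor and 2515 and 2286 bp with DMSO, and it was in all 4 lists. At BTK it covered 1933 and 1953 bp with the inhibitor and 1842 and 0 bp with DMSO. PLCG2 and DOCK8 had no H3K27ac peak in any list.
Of 31 genes known for internal promoters, 8 held a member: FOXP1, NFATC1, BDNF, PDE4D, PRDM1, AUTS2, GNAI2 and DMD. Only 4 of the 8 members held an annotated protein-coding start. Those in FOXP1, PRDM1, AUTS2 and DMD lay in the gene body without an annotated start. None of these 8 had H3K27ac in all 4 lists and 5 had it in no list, near the 8.57% and 62.3% of all merged regions. PDE4D, a cyclic AMP phosphodiesterase, was marked 1482652 bp from its outer start, over 2050 and 1830 bp with the inhibitor and 2148 and 2196 bp with DMSO. Of 45 chromatin regulators, ARID1B, HDAC9 and CHD8 held a member. HDAC9 had H3K27ac over 3490 and 1511 bp with the inhibitor and 2326 and 0 bp with DMSO, and CHD8 had none in any list.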

How the data were processed

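The submitters' processing notes name the build hg38, the aligner Bowtie 1.1.2 and the peak caller MACS 1.4.2. Each ChIP library has its own list, which the authors deposited as bare peak positions without any score, fold or p-value. Mapping settings, the calling threshold and the use made of the 4 inputs are not given in the sources. Read depth is unknown, and a peak can be missing because the signal did not reach the threshold.

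Peaks were merged and compared by presence (at least 1 bp of overlap) and by covered length, in Python 3.11.15 with pandas 2.3.3, numpy 2.4.6 and scipy 1.17.1. Figures used matplotlib 3.10.9. Gene ends came from 19974 protein-coding and 39124 noncoding genes of a RefSeq GRCh38.p14 table, and starts and sequences from a RefSeq promoter table with 34992 starts. Exons and a genome were not used here, so exonic and intronic positions are not separated and members without a start are shown without sequence. Positions count from 1.

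Shares of regions with a peak were compared between treatments by an exact permutation test (two-sided, 6 assignments), whose smallest p is 0.333. Shares of region groups within a library were compared by a two-sided exact sign-flip permutation test over the 4 libraries, whose smallest p is 0.125. There were 2 tests of treatment and 4 within libraries, and since none could pass a threshold of 0.05, no adjustment was made. The members, classes and gene lists were chosen with earlier results of these data known. Members were named by rule: the 10 with the longest H3K4me3, up to 10 per mark that kept, lost or gained H3K27ac or H3K4me1 by covered length, those of the gene lists, and those at the thresholds. The members without a start that had both marks, and those at tRNA genes and microRNAs, were named after their values were seen. Sequences were printed for named members. The peak-score alternatives that had been planned were run on peak widths. Replicate numbers did not pair the libraries. The code was tested on simulated data.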

Additional observations from a re-analysis of the deposited data

How the results depend on the processing

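Of 249 alternatives over 19 results, 8 reversed, 15 moved a count or an untested value beyond the limit set for it, and 226 did neither, though the size of a difference could still change among these. Leaving a library out also chose the members anew. Across these omissions losses of H3K27ac numbered 81 to 228, gains 4 to 36, regions with H3K27ac in all 4 lists 112 to 149 and losses of H3K4me1 107 to 551. With lists cut to the widest peaks there were 28 losses and 12 gains of H3K27ac, 13 losses of H3K4me1 and 88 members between genes, and the difference between members and gene-end regions was 0.986 points for H3K27ac and 0.596 for H3K4me1; these lists hold fewer peaks. The differences of -11.3 and -26.5 points between treatments became -4.11 and -2.31 points with these lists. Gene ends more than 5 kb away left 2 gains. H3K27ac in all 4 lists was found at 59 members under 3000 bp and at 150 with no width limit. Leaving out members at pseudogene ends, an alternative chosen after seeing the data, left 128 at other noncoding ends and gave 0.0899 points for H3K4me1 against gene-end regions. Members without a start minus those with one, also chosen after seeing the data, differed by -5.45 points for H3K27ac (-2.86 under 3000 bp) and by -0.293 for H3K4me1. The second turned to 0.0627 (5 kb), 0.288 (50% of the region or peak covered), 0.0876 (cut lists), 0.946 (no pseudogene ends) and, without single libraries, ran from -0.509 to 0.534; the cause was not tested. Replicate numbers are shared labels: deviations of same-numbered libraries correlated at 0.0437 for H3K4me3, 0.0381 for H3K27ac and -0.0327 for H3K4me1, and the replicate block left the differences at -11.3 and -26.5 points with an exact permutation p of 0.5, the smallest it allows. Depth is unknown, so absence of a peak is not absence of a mark.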

Other observations

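Pairs of members lay in 20 protein-coding genes, and no gene held 3 or more, so these were named after their values were seen. MGAT1, which starts the branching of N-linked sugars, held 2 annotated internal starts, at chr5:180801540-180804959 and chr5:180809022-180811723. PCGF5, a Polycomb group gene, FAM222B, SMTN, RABGEF1, NFIB and FNBP1 also held an annotated start in both of their members. In MACF1, OSBPL9, PFKFB3 and TUBA1C 1 of the 2 members held no annotated protein-coding start.

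Among the longest members, some without a protein-coding start had a gene of B cells as the nearest coding gene. Those described were picked for that neighbour. The region at chr22:22254059-22257988 lay 8544 bp from VPREB1, a surrogate light chain gene in the immunoglobulin lambda locus, and H3K4me3 covered 3930 and 3359 bp with the inhibitor and 3454 and 3587 bp with DMSO. The member at MEF2C-AS2, antisense to the B-cell factor gene MEF2C, lay 39860 bp from the nearest MEF2C end. H3K4me3 covered 3494 and 3275 bp of it with the inhibitor and 3849 and 3635 bp with DMSO. By chromosome, members made up 48 of 500 kept H3K4me3 regions on chromosome 11, the lowest share, and 42 of 221 on chromosome 22, the highest.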
